A study of Homo sapiens with 12 samples.

Results

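The RNA levels of 10 receptor tyrosine kinase genes that are studied as drug targets in sarcoma were compared between SK-UT-1B, an established human uterine leiomyosarcoma (uLMS) line, and SK-LMS-1, another. The genes were PDGFRA, PDGFRB, KIT, FGFR1, FGFR2, FGFR3, EGFR, ERBB2, MET, and AXL, and they were found by their symbols in a table of 60649 genes. All 10 passed the filter on low counts and were among the 21114 genes tested, but FGFR2 and FGFR3 passed through their counts in SK-UT-1B alone. SK-UT-1B is derived from a primary uLMS with epithelial-like shape and SK-LMS-1 from a metastasis, and both carry the genotype label WT.

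RNA was sequenced in bulk 72 h after exposure to DMSO, the vehicle control, or to drugs at their IC30, the concentration expected to lower viability by 30%. The drugs were MK-0752, a gamma secretase inhibitor that blocks activation of Notch receptors, given alone in SK-LMS-1, and MK-0752 with the chemotherapeutics gemcitabine and docetaxel, called the combination here, in both lines. For SK-UT-1B, 2 libraries came from DMSO and 2 from the combination. For SK-LMS-1, 4 came from DMSO, 2 from MK-0752, and 2 from the combination. The SK-LMS-1 DMSO libraries carry a set number, 2 or 4, whose meaning the labels do not give, and MK-0752 was compared with set 2 and the combination with set 4 by the number they share. In SK-UT-1B the DMSO libraries carry set number 4 and the combination libraries 3, so set and treatment cannot be told apart there. The study used lower concentrations of each drug within the combination than alone, so MK-0752 alone and the combination differ in the dose of MK-0752 as well as in the added drugs. SK-UT-1B exposed to MK-0752 alone was not analysed here. Nothing states that libraries of a group came from separate cultures, so p-values measure the spread between libraries, which may be technical. Each line comes from 1 tumor, and a difference between them is a difference between these cultures.

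Receptor tyrosine kinases span the cell membrane, pair when a ligand binds outside the cell, and phosphorylate each other inside it, which recruits adaptors and switches on the RAS-MAPK and PI3K pathways. PDGFRA, PDGFRB, and KIT form a class of receptors for platelet-derived growth factors and stem cell factor, FGFR1, FGFR2, and FGFR3 bind fibroblast growth factors, EGFR and ERBB2 belong to the ERBB family, MET binds hepatocyte growth factor, and AXL binds GAS6. Inhibitors of the PDGF receptors and KIT are used in several sarcomas, and PDGFRA and KIT are the genes mutated in gastrointestinal stromal tumor.

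SK-LMS-1 had far more EGFR, MET, and AXL RNA than SK-UT-1B, whereas FGFR2 and FGFR3 had 0 counts in all 8 SK-LMS-1 libraries. The 250 bases before the RefSeq start site of these 5 genes (build GRCh38.p14) are given because these genes set the lines furthest apart. Where a gene had several RefSeq windows, the one with its start site nearest the GENCODE start of the gene was used. FGFR2 had 5 such windows and EGFR and AXL 2 each, and the others are not described. Each is written 5′ to 3′ on the gene's strand, with GC boxes, GGGCGG or its reverse complement CCGCCC, in capitals. The stretches are chr10:121598445-121598694 on the minus strand for FGFR2, chr4:1793043-1793292 on the plus strand for FGFR3, chr7:55018767-55019016 on the plus strand for EGFR, chr7:116671946-116672195 on the plus strand for MET, and chr19:41218973-41219222 on the plus strand for AXL.
FGFR2: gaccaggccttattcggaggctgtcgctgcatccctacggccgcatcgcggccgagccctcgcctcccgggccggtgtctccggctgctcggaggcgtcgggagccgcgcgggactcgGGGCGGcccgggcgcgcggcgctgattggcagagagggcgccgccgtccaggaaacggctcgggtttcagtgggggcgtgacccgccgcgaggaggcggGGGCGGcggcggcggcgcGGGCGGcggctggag
FGFR3: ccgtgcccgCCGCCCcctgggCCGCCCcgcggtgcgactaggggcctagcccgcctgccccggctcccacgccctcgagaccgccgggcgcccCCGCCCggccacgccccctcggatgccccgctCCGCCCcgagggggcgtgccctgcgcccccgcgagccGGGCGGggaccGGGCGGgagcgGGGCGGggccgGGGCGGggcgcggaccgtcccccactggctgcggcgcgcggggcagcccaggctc
EGFR: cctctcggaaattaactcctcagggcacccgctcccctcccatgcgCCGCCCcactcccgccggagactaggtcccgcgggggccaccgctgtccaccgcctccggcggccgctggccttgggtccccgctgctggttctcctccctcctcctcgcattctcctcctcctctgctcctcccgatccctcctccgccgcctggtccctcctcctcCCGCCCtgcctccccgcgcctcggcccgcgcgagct
MET: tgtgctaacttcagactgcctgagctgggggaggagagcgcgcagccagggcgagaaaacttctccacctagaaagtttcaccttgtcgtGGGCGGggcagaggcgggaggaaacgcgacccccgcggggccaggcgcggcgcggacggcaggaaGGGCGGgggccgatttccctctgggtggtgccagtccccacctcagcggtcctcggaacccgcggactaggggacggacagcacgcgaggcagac
AXL: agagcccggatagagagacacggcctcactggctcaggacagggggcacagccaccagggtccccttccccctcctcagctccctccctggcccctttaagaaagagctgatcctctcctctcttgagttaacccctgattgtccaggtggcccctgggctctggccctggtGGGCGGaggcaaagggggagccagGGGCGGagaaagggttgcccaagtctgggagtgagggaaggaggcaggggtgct

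FGFR3 held 8 GC boxes, FGFR2 held 3, and EGFR, MET, and AXL held 2 each, in a search of both strands. Of 35116 RefSeq windows of the same length, 42.6% held at least 1 GC box. FGFR2 had 42 CpG dinucleotides and FGFR3 had 40, numbers that 1.4% and 2.2% of windows reached. EGFR and MET had 25 and 24, which 21.6% and 23.7% of windows reached. AXL had 4 CpG, fewer than the median of 11 over all windows, although its GC content was 64.4%. Of the members that are not printed, KIT held 1 GC box and 34 CpG, PDGFRB 1 and 9, ERBB2 0 and 23, and PDGFRA 0 and 8. The start site used for KIT lay 690 bases from its GENCODE start, and PDGFRA had 2 windows, of which the nearest was used. The letters TATAAA, found in 10.7% of windows on either strand, were in none of these 9. FGFR2, FGFR3, EGFR, and MET thus had more CpG than the median window and at least 2 GC boxes, whichever line they were higher in, and AXL shared the GC boxes only. These matches describe the letters in the windows, and binding or methylation was not measured. FGFR1 was not among the windows used here.

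Levels were compared between genes as RPKM, reads per kilobase of exon scaled to library size. In SK-UT-1B, FGFR1 was highest, with a median of 66.0 RPKM over 4 libraries (58 to 68.0), followed by PDGFRA with 42.4 (33.7 to 51.3) and ERBB2 with 13.3 (11.6 to 14.5). AXL had 4.85 RPKM, PDGFRB 2.22, and FGFR3 1.5. EGFR (0.388), FGFR2 (0.368), KIT (0.276), and MET (0.157) were all below 1 RPKM at the median. Ranges overlapped between PDGFRB and FGFR3, FGFR2 and EGFR, EGFR and KIT, and KIT and MET, so the order of these neighbors is not settled.

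In SK-LMS-1 the order was another one. AXL was highest with a median of 331 RPKM over 8 libraries (239 to 344), followed by MET with 197 (141 to 220.3) and EGFR with 46.0 (40.5 to 49.3). FGFR1 (15.1 RPKM, 12.5 to 17.6) and PDGFRA (13.5, 11.1 to 16.4) overlapped in range, as did PDGFRB (2.39, 1.87 to 3.09) and KIT (1.47, 0.946 to 2.10), with ERBB2 between these pairs at 4.02 (3.47 to 5.2). FGFR2 and FGFR3 were at 0. AXL and MET stood at percentiles 99.7 and 99.4 of the 21114 tested genes in this line, whereas FGFR1 and PDGFRA stood at percentiles 98.1 and 96.5 in SK-UT-1B. Among 58 receptor tyrosine kinases, the 10 genes made up 47.5 ± 4.21% of the summed RPKM in SK-UT-1B (SD, n = 4) and 76.0 ± 2.11% in SK-LMS-1 (SD, n = 8). AXL alone took 41.0 ± 1.6% and MET 24.2 ± 1.91% in SK-LMS-1, and FGFR1 took 23.6 ± 0.703% and PDGFRA 15.6 ± 3.17% in SK-UT-1B.

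**Figure D1:**
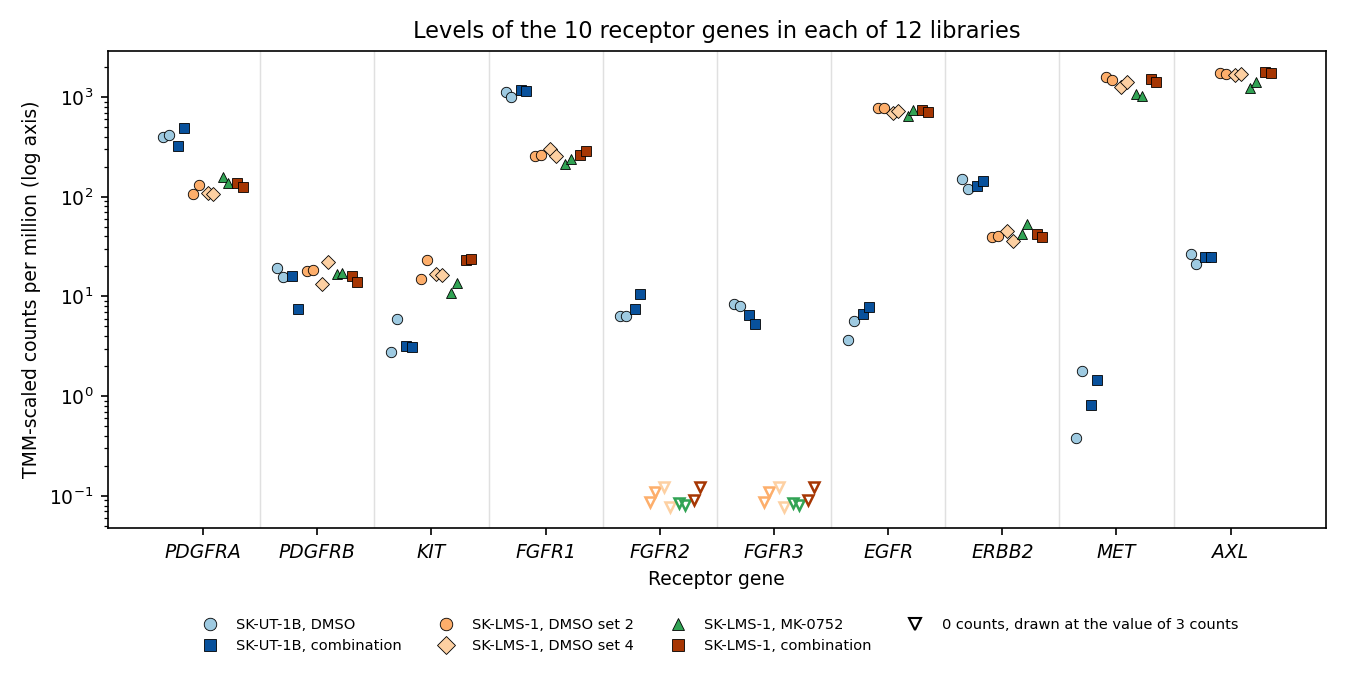
Level of each of the 10 receptor genes in every library, as counts scaled to library size (CPM) on a log axis, with points for single libraries grouped by line and treatment and open triangles for 0 counts, drawn at the value of 3 counts. EGFR, MET, and AXL lie at 645 CPM or above in all SK-LMS-1 libraries and at 26.9 CPM or below in all SK-UT-1B libraries, and FGFR2 and FGFR3 have 0 counts in SK-LMS-1.

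Ratios between pairs of receptors were also taken per length, and all but the ratio of FGFR1 to PDGFRA, among those with counts in both lines, were apart in range. The ratio of EGFR to ERBB2, which pair with each other in the ERBB family, had a median of 0.0322 in SK-UT-1B (0.0158 to 0.0348) and 11.4 in SK-LMS-1 (8.85 to 13.3). AXL was above MET in every library, by a median ratio of 33.3 in SK-UT-1B (16.6 to 99.3) and 1.65 in SK-LMS-1 (1.55 to 1.96). PDGFRA was above PDGFRB in every library, with a median ratio of 17.5 in SK-UT-1B (14.9 to 49.3) and 6.03 in SK-LMS-1 (3.61 to 6.92). The ratio of FGFR1 to PDGFRA was 1.45 in SK-UT-1B (1.31 to 2.02) and 1.18 in SK-LMS-1 (0.761 to 1.54), which overlap. The ratio of PDGFRA to KIT was 145 in SK-UT-1B (82.5 to 188) and 7.70 in SK-LMS-1 (6.24 to 17.4). In SK-UT-1B, FGFR1 exceeded FGFR2 172-fold (120.1 to 189) and FGFR3 44-fold (35.1 to 61.3). FGFR4, which is not among the 10 genes, had a mean of 9.11 RPKM there, between FGFR1 (64.5) and FGFR3 (1.45).

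**Figure D2:**
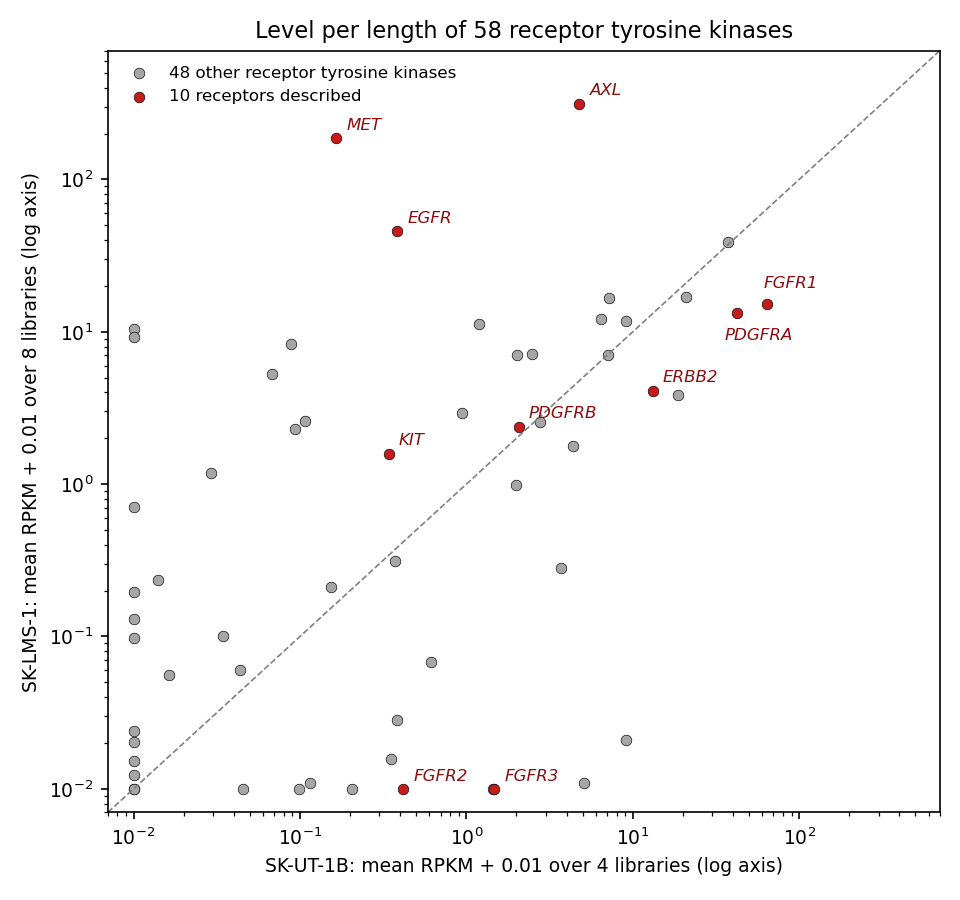
Mean RPKM + 0.01 of 58 receptor tyrosine kinases in SK-UT-1B (horizontal log axis, 4 libraries) and SK-LMS-1 (vertical log axis, 8 libraries), with the 10 receptors in red and a dashed line of equal level. AXL, MET, and EGFR lie far above the line, FGFR1, PDGFRA, and ERBB2 below it, and PDGFRB on it.

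The comparison of the lines after DMSO asked which receptors differ without any drug. A gene passed when its log2FC was 1 or more in either direction and its p from edgeR's quasi-likelihood test, after Benjamini-Hochberg adjustment, was under 0.05. EGFR, MET, AXL, and KIT were higher in SK-LMS-1 and PDGFRA, FGFR1, FGFR2, FGFR3, and ERBB2 were lower, which left PDGFRB as the member that did not pass. This was 4 of 10 higher, when 17% of all tested genes were, and 5 of 10 lower, when 14.1% were. DESeq2 gave the same counts. FGFR2 and FGFR3 entered the test through SK-UT-1B alone, which fixed their direction. Of the lower members, only PDGFRA, FGFR1, and ERBB2 therefore bear on the comparison with 14.1%. The libraries are bulk RNA, in which fewer cells of a kind and less RNA per cell cannot be told apart.

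MET, the receptor for hepatocyte growth factor and a driver of cell scattering and invasion (ENSG00000105976.16, chr7:116672196-116798377 on hg38, plus strand), showed the widest gap among the members with counts in both lines. It had 0.381 and 1.80 CPM in the SK-UT-1B DMSO libraries, and 1591, 1469, 1263, and 1432 CPM in those of SK-LMS-1. Every SK-LMS-1 library was above every SK-UT-1B library by far. Its log2FC was 10.29 (standard error 0.56, 95% interval 8.98 to 11.59), a 1249-fold difference (edgeR adjusted p = 1.75e-06). The SK-UT-1B values rest on 11 and 68 counts, which differ by more than the counting error, and the log2FC was 9.59 without replicate 1 and 11.87 without replicate 2. Libraries of the same group differed in this way at other genes too, since 54 to 845 genes per group had 0 counts in 1 library and at least 50 in the other.

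EGFR, the receptor for epidermal growth factor and related ligands (ENSG00000146648.20, chr7:55019017-55211628, plus strand), had 3.67 and 5.70 CPM in SK-UT-1B and 786, 773, 697, and 733 CPM in SK-LMS-1 after DMSO. The groups were far apart and the SK-LMS-1 libraries close together. The log2FC was 7.30 (standard error 0.21, interval 6.86 to 7.75), a 158-fold difference (edgeR adjusted p = 8.63e-16). ERBB2, the family member without a known ligand of its own (ENSG00000141736.14, chr17:39687914-39730426, plus strand), went the other way. It had 150.002 and 119 CPM in SK-UT-1B and 39.3, 40.6, 45.0, and 35.8 CPM in SK-LMS-1, with no overlap. Its log2FC was -1.74 (standard error 0.16, interval -2.09 to -1.40), which is 3.35-fold lower in SK-LMS-1 (edgeR adjusted p = 3.62e-08). Exons of ERBB2 share 571 bases with MIEN1 and 144 with PGAP3 on the other strand, and the strand setting of the counts is not stated, so reads from the shared bases are uncertain. These genes had at most 613 counts in a library.

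AXL, a receptor of the TAM family that is linked to invasion and drug resistance (ENSG00000167601.12, chr19:41219223-41261766, plus strand), had 26.9 and 21.2 CPM in SK-UT-1B and 1753, 1704, 1661, and 1697 CPM in SK-LMS-1 after DMSO. It was present in both lines and 70.9-fold higher in SK-LMS-1, a log2FC of 6.15 (standard error 0.16, interval 5.81 to 6.49, edgeR adjusted p = 3.52e-16). Its exons share 67 bases with a long noncoding RNA gene on the other strand that had at most 32 counts. KIT, the receptor for stem cell factor (ENSG00000157404.16, chr4:54657267-54740783, plus strand), had 2.77 and 5.97 CPM in SK-UT-1B and 14.9, 23.2, 16.8, and 16.5 CPM in SK-LMS-1. The groups did not overlap, and KIT was low in both lines. It was 4.06-fold higher in SK-LMS-1, a log2FC of 2.02 (standard error 0.39, interval 1.2 to 2.84, edgeR adjusted p = 0.000291). The log2FC was 1.53 without SK-UT-1B DMSO replicate 1 and 2.68 without replicate 2, so the size depended on these libraries.

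PDGFRA, the PDGF receptor with the broader choice of ligands (ENSG00000134853.12, chr4:54229280-54298245, plus strand), had 395 and 415 CPM in SK-UT-1B and 108, 131, 110, and 106 CPM in SK-LMS-1 after DMSO. All SK-LMS-1 libraries were lower, by 3.56-fold, a log2FC of -1.83 (standard error 0.15, interval -2.15 to -1.52, edgeR adjusted p = 4.67e-09). A readthrough gene model on the same strand shares 1533 of its exon bases and had 0 counts. PDGFRB, which binds PDGF-B and marks pericytes and smooth muscle precursors (ENSG00000113721.14, chr5:150113839-150155872, minus strand), had 19.4 and 15.6 CPM in SK-UT-1B and 17.9, 18.3, 13.3, and 22.1 CPM in SK-LMS-1. These groups overlapped. The log2FC of 0.03 had an interval of -0.65 to 0.72 (edgeR adjusted p = 1.000), which leaves room for a difference of that size in either direction.

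FGFR1, the FGF receptor most common in mesenchymal cells (ENSG00000077782.22, chr8:38400215-38468834, minus strand), had 1112 and 998 CPM in SK-UT-1B and 253, 262, 303, and 259 CPM in SK-LMS-1 after DMSO. It was 3.92-fold lower in SK-LMS-1, with no overlap, a log2FC of -1.97 (standard error 0.11, interval -2.21 to -1.73, edgeR adjusted p = 2.06e-11). Its exons share 138 bases with LETM2 on the other strand, which had 60 to 573 counts per library, and 387 with a long noncoding RNA gene of 0 to 54 counts. FGFR2 (ENSG00000066468.24, chr10:121478332-121598458, minus strand), known for its epithelial and mesenchymal splice forms, had 186 and 240 counts (6.44 and 6.37 CPM) in SK-UT-1B and 0 in every SK-LMS-1 library. Against a floor of 3 counts per library SK-LMS-1 was at least 65-fold lower (edgeR adjusted p = 1.27e-05). FGFR3 (ENSG00000068078.20, chr4:1793293-1808872, plus strand), a brake on bone growth that is mutated in dwarfism, had 241 and 302 counts (8.34 and 8.01 CPM) in SK-UT-1B and 0 in every SK-LMS-1 library. It was at least 83.0-fold lower (edgeR adjusted p = 1.46e-05). FGFR2 and FGFR3 entered the test through their counts in SK-UT-1B alone. Their direction was thereby fixed, so the counts describe them and these p-values add no support. SK-LMS-1 thus had counts for FGFR1 alone among the 3 FGF receptors described.

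After the combination the same 4 members were higher in SK-LMS-1 and the same 5 lower, when 15.6% of all tested genes were higher and 9.88% lower. Among the lower members only PDGFRA, FGFR1, and ERBB2 bear on that share. FGFR2 and FGFR3 entered the test through SK-UT-1B alone, so their p-values below add no support. The log2FC was 10.36 for MET, 6.65 for EGFR, 6.13 for AXL, and 2.91 for KIT (interval 1.99 to 3.83), and edgeR adjusted p values lay between 5.51e-16 for AXL and 2.65e-05 for KIT. It was -1.62 for PDGFRA, -2.08 for FGFR1, and -1.74 for ERBB2, with edgeR adjusted p values of 7.27e-07, 3.63e-10, and 9.56e-07. FGFR2 had 271 and 297 counts in the SK-UT-1B combination libraries and SK-LMS-1 was at least 84.2-fold lower (edgeR adjusted p = 0.000302). FGFR3 had 239 and 150 counts there and was at least 55.6-fold lower (edgeR adjusted p = 0.000647). PDGFRB again did not pass, with a log2FC of 0.35 (interval -0.45 to 1.15, edgeR adjusted p = 0.529).

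**Figure D3:**
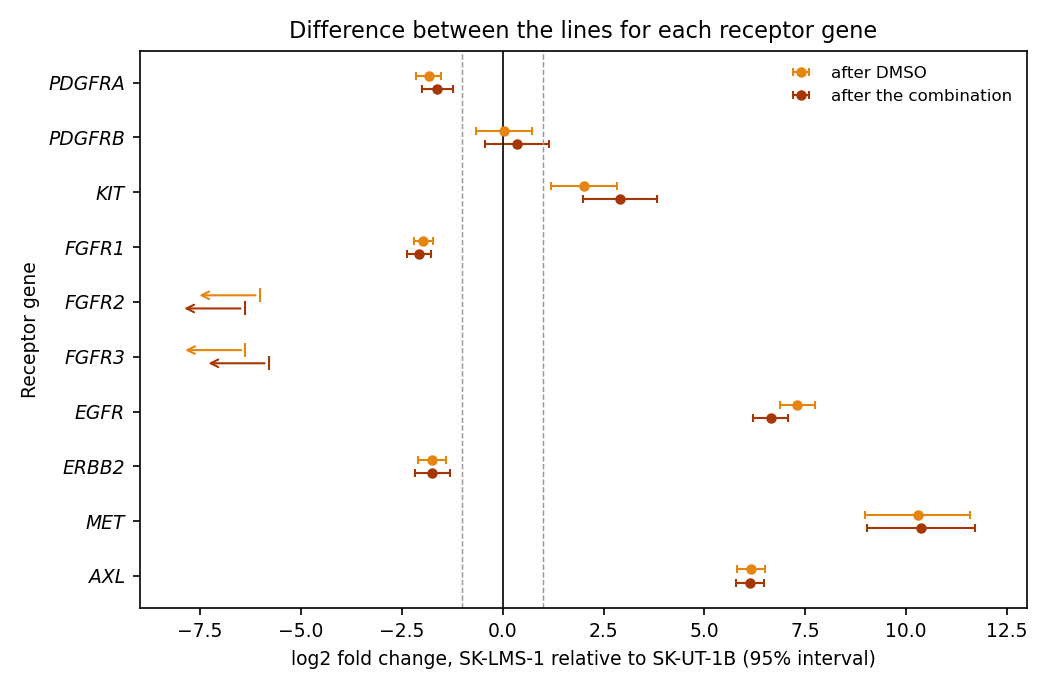
Difference of each receptor gene between the lines as log2FC with its 95% interval, positive where SK-LMS-1 was higher, after DMSO and after the combination, where arrows mark genes with 0 counts in SK-LMS-1 and start at the bound, and dashed lines mark a log2FC of 1 and -1. MET lies highest, at 10.29 after DMSO and 10.36 after the combination, and PDGFRB lies at 0.03 and 0.35 with intervals that hold 0.

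The treatment comparisons asked whether the receptors respond to the drugs. In SK-UT-1B, 0 of 10 members passed the thresholds after the combination, when 0.559% of all tested genes did, and 1 member had an unadjusted edgeR p under 0.05, when 10.5% of all tested genes had. DESeq2 also called 0. That member was EGFR, which had 3.67 and 5.70 CPM after DMSO and 6.67 and 7.77 CPM after the combination. Both treated libraries were above both DMSO libraries. Its log2FC was 0.61 (standard error 0.18, interval 0.23 to 0.99), with an edgeR unadjusted p of 0.00310 and an adjusted p of 0.155, and the adjusted p ranged from 0.0292 with no filter on low counts to 0.834 with only these 4 libraries. It was 0.0322 with DESeq2. The log2FC was 0.97 without DMSO replicate 2 (edgeR adjusted p = 0.00370) and 0.32 without DMSO replicate 1 (edgeR adjusted p = 1), so it rested on those libraries, and EGFR was 100.1-fold below its level in SK-LMS-1 after the combination.

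For the abundant receptors of SK-UT-1B the intervals were narrow. After the combination the log2FC was 0.0019 for PDGFRA (interval -0.37 to 0.38), 0.14 for FGFR1 (-0.14 to 0.42), 0.02 for ERBB2 (-0.39 to 0.43), and 0.05 for AXL (-0.24 to 0.34). FGFR1 had 1169 and 1158 CPM after the combination, against 1112 and 998 after DMSO. PDGFRA had 322 and 489 CPM, on either side of its DMSO values of 395 and 415. A change of 2-fold lay outside all 4 of these intervals. The low receptors were less well determined. PDGFRB had 16.1 and 7.42 CPM after the combination (log2FC -0.57, interval -1.37 to 0.23) and KIT 3.17 and 3.09 CPM (-0.49, -1.36 to 0.39), and both overlapped their DMSO values. With 1 library left out, PDGFRB ranged from -1.26 without combination replicate 1 to -0.12 without replicate 3, and KIT from -0.95 without DMSO replicate 1 to 0.18 without replicate 2. FGFR2 had 7.40 and 10.5 CPM, both above its DMSO libraries, and a log2FC of 0.49 with an interval of -1.89 to 2.86. FGFR3 had 6.53 and 5.32 CPM, both below its DMSO libraries, and a log2FC of -0.46 with an interval of -2.96 to 2.04. MET had 0.820 and 1.46 CPM, between its DMSO values of 0.381 and 1.80, and its log2FC of -0.04 (interval -1.34 to 1.26) became 1.54 without DMSO replicate 2 (edgeR adjusted p = 0.0124), which was the only setting in which a member passed here.

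**Figure D4:**
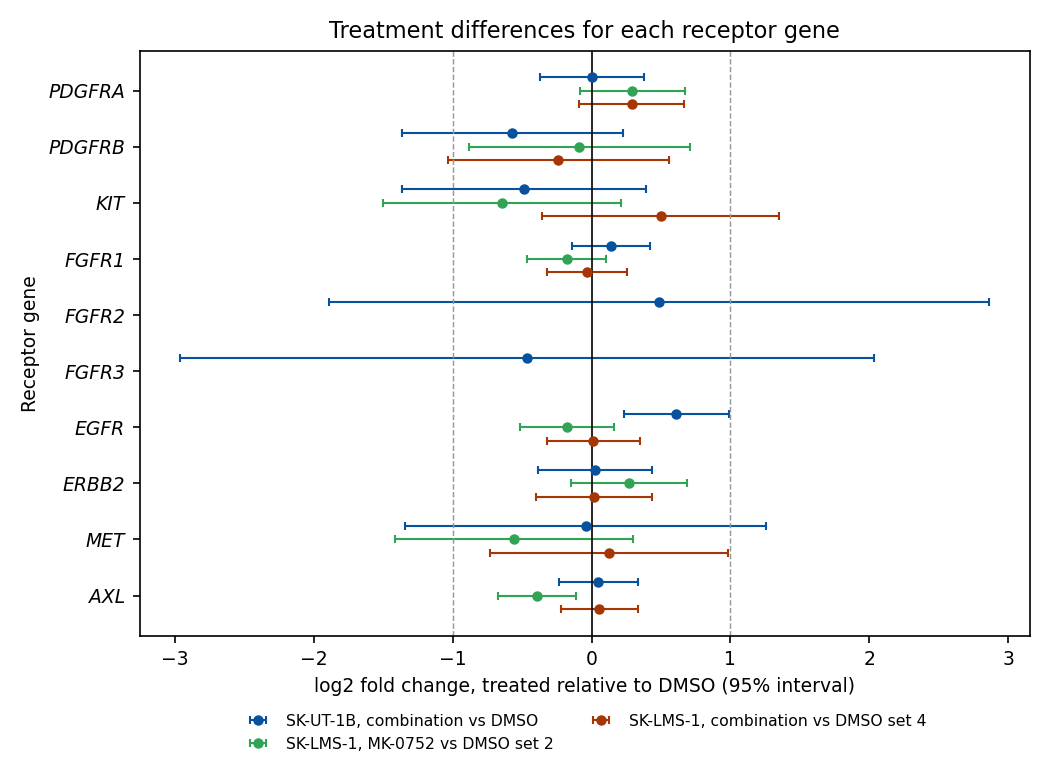
Response of each receptor gene to the drugs as log2FC relative to the DMSO libraries with its 95% interval, for SK-UT-1B after the combination, SK-LMS-1 after MK-0752, and SK-LMS-1 after the combination, with dashed lines at a log2FC of 1 and -1. No gene passes the thresholds, and the intervals of EGFR in SK-UT-1B (0.23 to 0.99) and of AXL in SK-LMS-1 after MK-0752 (-0.67 to -0.11) leave out 0.

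In SK-LMS-1 after MK-0752, 0 members passed relative to DMSO set 2, when 0.251% of all tested genes did. AXL was the 1 member with an unadjusted edgeR p under 0.05, which 6.41% of all tested genes had, and DESeq2 called 0. AXL had 1226 and 1412 CPM after MK-0752, against 1753 and 1704 in DMSO set 2 and 1661 and 1697 in set 4. Both MK-0752 libraries were below the other 6 libraries of the line. The log2FC was -0.39 (standard error 0.13, interval -0.67 to -0.11), with an edgeR unadjusted p of 0.00865 and an adjusted p of 0.431. MET had 1591 and 1469 CPM in set 2, 1263 and 1432 in set 4, and 1062 and 1015 after MK-0752, again the lowest values of the line. Its log2FC of -0.56 (interval -1.42 to 0.30) did not pass (edgeR adjusted p = 0.806), although a model with only these 4 libraries gave an edgeR adjusted p of 0.0186. KIT had 14.9 and 23.2 CPM in set 2 and 10.7 and 13.6 after MK-0752, without overlap, and a log2FC of -0.65 (interval -1.50 to 0.21, edgeR adjusted p = 0.806), which was -0.93 without DMSO set 2 replicate 1 and -0.31 without replicate 3. FGFR1 had 215 and 240 CPM after MK-0752, also below its other 6 libraries, with a log2FC of -0.18 (interval -0.46 to 0.11), which was -0.10 without MK-0752 replicate 2 and -0.26 without replicate 3. In SK-LMS-1 the lowest libraries of AXL, MET, KIT, and FGFR1 were those exposed to MK-0752. None of these genes passed, and the share of all tested genes that separate in this way was not counted. The pattern is therefore not read as a result about the receptors.

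After MK-0752 the log2FC was 0.29 for PDGFRA (interval -0.09 to 0.67), 0.27 for ERBB2 (-0.14 to 0.68), -0.18 for EGFR (-0.51 to 0.16), and -0.09 for PDGFRB (-0.88 to 0.71). With 1 library left out, PDGFRA ranged from 0.16 to 0.43, ERBB2 from 0.095 to 0.43, and EGFR from -0.27 to -0.087. FGFR2 and FGFR3 had 0 counts before and after treatment, which allows up to 3 counts per library. PDGFRA had 157 and 136 CPM, both above the 4 DMSO libraries, which lay between 106 and 131 CPM. EGFR had 645 and 734 CPM, and its lowest library was again an MK-0752 library.

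In SK-LMS-1 after the combination, 0 members passed relative to DMSO set 4, when 0.0237% of all tested genes did. Members with an unadjusted edgeR p under 0.05 numbered 0, against 4.33% of all tested genes, and DESeq2 called 0. AXL had 1765 and 1726 CPM (log2FC 0.06, interval -0.22 to 0.34), MET 1516 and 1418 CPM (0.12, -0.73 to 0.98), and EGFR 740 and 704 CPM (0.01, -0.32 to 0.35). FGFR1 (-0.03, interval -0.32 to 0.25) and ERBB2 (0.02, -0.40 to 0.43) also had intervals around 0. KIT had 23.2 and 23.8 CPM against 16.8 and 16.5 in DMSO set 4, with a log2FC of 0.50 (interval -0.35 to 1.35), but a DMSO library of set 2 also had 23.2. PDGFRA had 138 and 125 CPM against 110 and 106, a log2FC of 0.29 (interval -0.09 to 0.67), and PDGFRB a log2FC of -0.24 (-1.04 to 0.55).

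In SK-LMS-1 the difference between the responses to MK-0752 and to the combination was tested itself, each relative to its own DMSO set, and 0 members passed, when 0.0379% of all tested genes did. The difference was -0.45 on the log2 scale for AXL (interval -0.84 to -0.05, edgeR unadjusted p = 0.0286, adjusted p = 0.911), -1.15 for KIT (-2.35 to 0.06, edgeR adjusted p = 0.911), and -0.68 for MET (-1.89 to 0.53, edgeR adjusted p = 1). A model with only the libraries of the comparison gave MET an edgeR adjusted p of 0.0402, still short of the fold threshold. For PDGFRA, PDGFRB, FGFR1, EGFR, and ERBB2 the difference lay between -0.19 and 0.25. The response to the combination in SK-LMS-1 minus that in SK-UT-1B was -0.60 for EGFR (interval -1.10 to -0.09, edgeR unadjusted p = 0.0232, adjusted p = 0.600) and 0.98 for KIT (-0.24 to 2.21, edgeR adjusted p = 0.717), and again 0 members passed, when 0.232% of all tested genes did. For PDGFRA, PDGFRB, FGFR1, ERBB2, MET, and AXL it lay between -0.17 and 0.33, and FGFR2 and FGFR3 have no such value. The KIT difference was 0.32 and the EGFR difference -0.96 (edgeR adjusted p = 0.0494) without SK-UT-1B DMSO replicate 2, when MET was the 1 member that passed at -1.42 (edgeR adjusted p = 0.0393), and they were 1.46 and -0.29 without replicate 1. Between DMSO set 4 and DMSO set 2, without any drug, 0 members passed and 0 had an unadjusted edgeR p under 0.05, when 0% of all tested genes passed with edgeR, 1197 had an unadjusted p under 0.05, and DESeq2 called 70. The log2FC of the 8 members with counts lay between -0.19 for KIT and 0.13 for FGFR1.

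The other genes of the pathway were counted from fixed lists, and after DMSO 17% of all tested genes were higher in SK-LMS-1 and 14.1% lower. Of 40 other receptor tyrosine kinases tested, of a list of 48, 15 were higher in SK-LMS-1 and 9 lower. Their median log2FC was 0.98, against -0.85 for the 10 members and 0 for all tested genes. The median of the members includes FGFR2 and FGFR3 at their bounds, with their direction fixed. It is therefore not read against that of the other receptors. TIE1, an endothelial receptor, and EPHB6, an ephrin receptor without kinase activity, were higher by at least 843-fold and at least 718-fold. FGFR4, the remaining FGF receptor, was at least 512-fold lower, and ROR2, a receptor for WNT5A, at least 216-fold lower. FGFR4 and ROR2 had 0 counts in every SK-LMS-1 DMSO library, and TIE1 and EPHB6 had 0 in every SK-UT-1B library. These genes passed the filter through 1 line alone, which fixed their direction. FGFR4 was lower in SK-LMS-1, as FGFR1, FGFR2, and FGFR3 were, but of these only FGFR1 could have gone either way.

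Of 23 ligand genes tested, of 33, 11 were higher and 2 lower, with a median log2FC of 1.19. FGF5 and FGF1, ligands of FGFR1, were higher in SK-LMS-1 by at least 1502-fold and at least 201-fold, and FGF20 was at least 42.8-fold lower. FGF5 and FGF1 had 0 counts in every SK-UT-1B library and FGF20 in every SK-LMS-1 library, which fixed their direction. Of 20 adaptors and effectors, 4 were higher and 2 lower, shares near those of all tested genes, 17% and 14.1%, with a median log2FC of 0.23. GAB2, a docking protein, had a log2FC of 5.25 (4.69 without SK-UT-1B DMSO replicate 1 and 6.19 without replicate 2) and RASA1, which switches RAS off, 1.85. NRAS, a RAS protein below the receptors, had -1.40.

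Of 25 inhibitors and turnover genes tested, of 26, 8 were higher and 2 lower, with a median log2FC of 0.43. LRIG1, which promotes degradation of ERBB receptors and MET, had 82.4 CPM in SK-LMS-1 and 3.31 in SK-UT-1B, a log2FC of 4.63 (edgeR adjusted p = 4.33e-12). ERRFI1, an inhibitor of the EGFR kinase, had 249 and 13.2 CPM, a log2FC of 4.24 (edgeR adjusted p = 1.88e-08). SPRY4 and SPRED1, inhibitors of RAS-MAPK signaling below FGF receptors, had 74.7 against 213 CPM (log2FC -1.52) and a log2FC of -1.14. SPRY2, of the same family as SPRY4 and named after its values were seen, went the other way, with 7.34 CPM in SK-UT-1B and 103 and 93.1 CPM in the DMSO sets of SK-LMS-1, a log2FC of 3.74 (edgeR adjusted p = 2.20e-11). The inhibitors of RAS-MAPK signaling thus did not share a direction. Of 11 coreceptors tested, of 13, 5 were higher and 2 lower, with a median log2FC of 0.43. NRP1, a coreceptor for VEGF and other ligands, had a mean of 1583 CPM in SK-LMS-1 and 0.584 in SK-UT-1B, where its counts lay in DMSO replicate 2, and CD44, a coreceptor of MET, had 2564 and 18.1 CPM (log2FC 7.14). The syndecan SDC3 had -1.08, which was -0.91 without SK-UT-1B DMSO replicate 1.

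After treatment few of these genes passed. In SK-LMS-1 after MK-0752, 1 of 25 inhibitors and turnover genes and 1 of 23 ligands fell, when 0.251% of all tested genes passed. An unadjusted edgeR p under 0.05 was found for 6 of these 25 genes (24%) and 4 of these 23 (17.4%), against 6.41% of all tested genes. In the other 3 pathway lists 0 of 71 genes passed, 6 had an unadjusted edgeR p under 0.05, and DESeq2 called 1. ERRFI1 had 106 and 94.7 CPM after MK-0752, against 282 and 226 in DMSO set 2 and 240 and 248 in set 4, and its log2FC was -1.34 (edgeR adjusted p = 0.0491, standard error 0.26). Its adjusted p was 0.0657 with a filter at a mean of 50 counts and 0.000435 with DESeq2. FGF5 had 80.7 and 73.3 CPM after MK-0752, against 171 and 157 in DMSO set 2 and 116 and 108 in set 4, and its log2FC was -1.09 (edgeR adjusted p = 0.0148, standard error 0.19). It did not pass with all 4 DMSO libraries as the control (log2FC -0.81, edgeR adjusted p = 0.0308), without DMSO set 2 replicate 1 (-1.02, edgeR adjusted p = 0.0523), or without MK-0752 replicate 3 (-1.02, edgeR adjusted p = 0.0706). After the combination both genes were near their DMSO values, with 226 and 222 CPM for ERRFI1 and 123 and 101 for FGF5. In SK-LMS-1 after the combination 0 of 119 genes of the 5 pathway lists passed with edgeR or DESeq2, and 9 had an unadjusted edgeR p under 0.05, which 4.33% of all tested genes had. In SK-UT-1B after the combination 1 of 40 other receptors passed, EPHA5, when 0.559% of all tested genes did. EPHA5, which is named after its values were seen, had 0.346 and 0.424 CPM after DMSO and 1.01 and 1.31 after the combination. Its log2FC was 1.56 (edgeR adjusted p = 0.0294, and 0.932 with only these 4 libraries). It fell short of the thresholds without DMSO replicate 1 (log2FC 1.41). DESeq2 called 2 other receptors higher and 2 lower, and 6 of the 40 had an unadjusted edgeR p under 0.05. In the other 4 pathway lists 0 of 79 genes passed there, 16 had an unadjusted edgeR p under 0.05, which 10.5% of all tested genes had, and DESeq2 called 4.

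**Figure D5:**
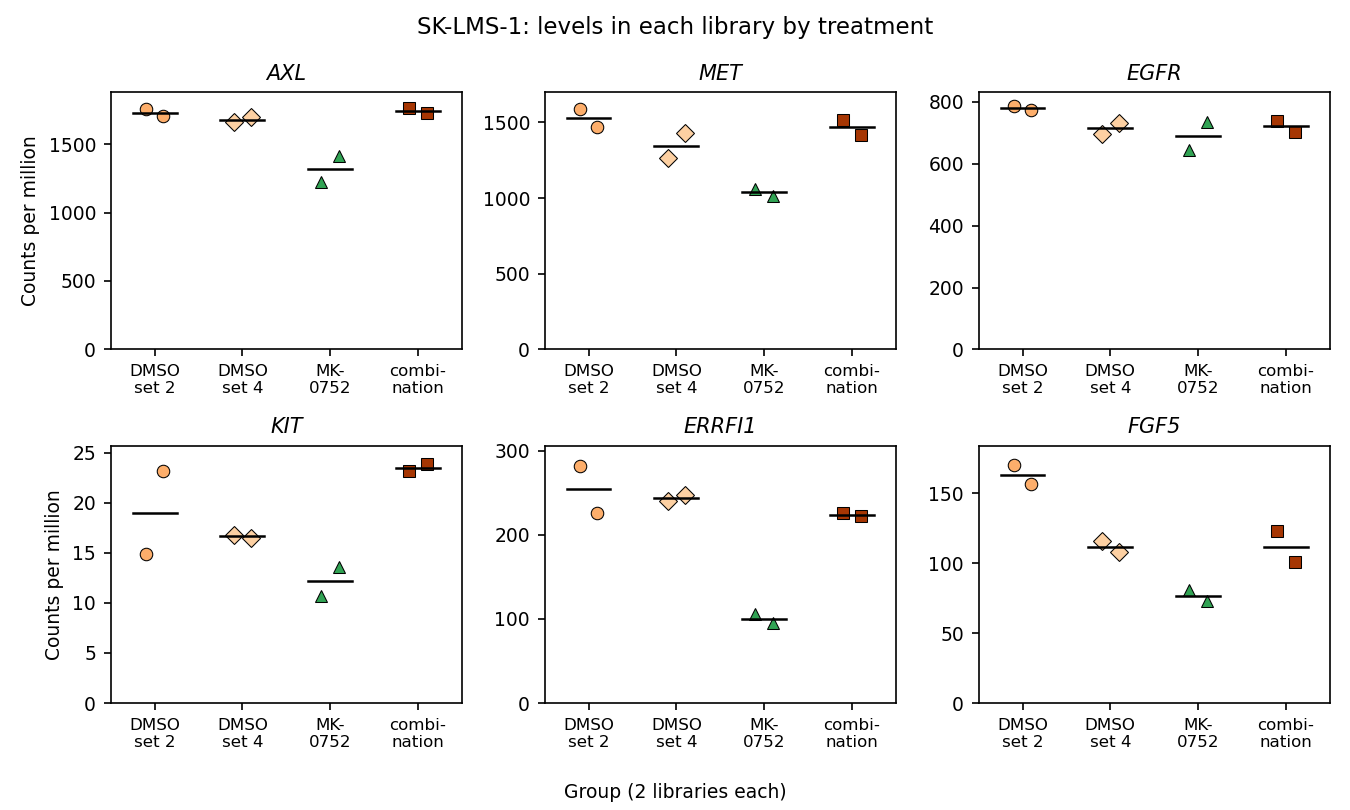
Level of AXL, MET, EGFR, KIT, ERRFI1, and FGF5 in each SK-LMS-1 library (CPM, linear axes from 0) after DMSO set 2, DMSO set 4, MK-0752, and the combination, with points for the 2 libraries of a group and a line at their mean. The MK-0752 libraries are the lowest for AXL (1226 and 1412), MET (1062 and 1015), KIT (10.7 and 13.6), ERRFI1 (106 and 94.7), and FGF5 (80.7 and 73.3), but EGFR overlaps. The share of all tested genes that separate in this way was not counted.

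Across the 12 libraries, the receptor most like each member was found by the root mean square distance of log2 CPM, each gene centered on its own mean, among 49 other receptor tyrosine kinases. PDGFRA was most like ERBB2 (0.198), FGFR1 most like PTK7 (0.191), and FGFR2 most like FGFR3 (0.318). EGFR was most like EPHA5 (0.348), AXL like MUSK (0.377), KIT like DDR1 (0.546), MET like TIE1 (0.529), and PDGFRB like RYK (0.370). These distances describe 12 libraries that share 2 lines. MUSK and TIE1 had 0 counts in every SK-UT-1B library, and FGFR2 and FGFR3 had 0 in every SK-LMS-1 library. Their log2 CPM there was set by the count of 2 added before taking logs, so distances that involve these genes depend on that setting.

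The genes around each member were counted within 1000000 bases on either side, for the difference between the lines after DMSO, in which 17% of all tested genes were higher and 14.1% lower. Around ERBB2, 19 of 53 tested neighbors were lower and 1 higher, with a median log2FC of -1.12, in the same direction as ERBB2. Around PDGFRA and KIT, which lie near each other on chromosome 4, 2 of 8 and 3 of 10 were lower and 1 and 0 higher, with medians of -1.06 and -0.77, although KIT itself was higher. These windows overlap, and each member counts as a neighbor of the other. The 1 higher neighbor of PDGFRA was KIT, and PDGFRA was among the 3 lower neighbors of KIT. Around FGFR3, 9 of 32 were lower and 2 higher, with a median of -0.80. Around MET, 3 of 14 were higher and 1 lower, with a median of 1.36, and around EGFR 4 of 17 were higher and 1 lower, with a median of 0.21. Around FGFR2, 5 of 10 were higher and 0 lower, with a median of 0.99, and around FGFR1 11 of 38 were higher and 4 lower, with a median of -0.26, both counts against the direction of the gene itself. Around AXL, 5 of 53 were higher and 5 lower, and around PDGFRB 6 of 33 were higher and 5 lower. Gene copy number was not measured.

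Markers of cell types were read beside the members. The smooth muscle list summed to 154 to 265 CPM per library in SK-UT-1B and 1235 to 1602 in SK-LMS-1, with 9 and 10 of 11 genes above 3 counts in a library, but MYH11, the smooth muscle myosin, had at most 5 counts in any library. Of 10 smooth muscle genes tested, 7 were higher in SK-LMS-1 and 1 lower after DMSO, when 17% of all tested genes were higher and 14.1% lower. MYLK, the myosin light chain kinase, had a mean of 2.21 CPM in SK-UT-1B and 496 in SK-LMS-1, a log2FC of 7.85, which was 8.79 without SK-UT-1B DMSO replicate 1 and 7.22 without replicate 2. DES, the intermediate filament desmin, was the 1 lower gene, at 0 in SK-LMS-1 and at least 76.6-fold lower there. It passed the filter through SK-UT-1B alone, which fixed its direction. TAGLN, with 0 and 31 counts in the SK-UT-1B DMSO libraries, had a log2FC of 6.52, which was 5.59 without replicate 1 and 13.34 without replicate 2. The epithelial list summed to 0.637 to 3.58 CPM in SK-UT-1B, with 7 of 11 genes at 0, and to 179 to 277 CPM in SK-LMS-1, with 8 of 11 above 3 counts. KRT8 and KRT19 were higher in SK-LMS-1 by at least 1120-fold and at least 116-fold, whereas CDH1, the epithelial cadherin, had at most 3 counts in any library. The endothelial list summed to 2.07 to 2.90 CPM in SK-UT-1B and 55.2 to 99.8 in SK-LMS-1, where TIE1 alone gave 47.8 to 93.3 CPM, and 2 of its 7 genes were higher and 1 lower. The hematopoietic list summed to at most 1.37 CPM in SK-UT-1B and 6.45 in SK-LMS-1, with 1 of 4 tested genes higher. The endothelial and hematopoietic lists are short, so their counts of called genes are not read as results beside the shares of all tested genes. The list for mast cells and interstitial cells of Cajal, which use KIT, summed to 314 to 509.5 CPM in SK-UT-1B and 278 to 374 in SK-LMS-1, nearly all of it from ETV1, with the mast cell gene TPSAB1 at 0. ANO1, a channel of interstitial cells of Cajal, had a mean of 10.1 CPM in SK-UT-1B after DMSO and at most 0.487 in any DMSO library of SK-LMS-1. It was lower in SK-LMS-1 (edgeR adjusted p = 0.002006), opposite to KIT. Of 8 epithelial genes tested, 5 were higher in SK-LMS-1 and 0 lower after DMSO. KRT8, KRT7, and CLDN4 had 0 counts in every SK-UT-1B library, and KRT19 had 0 in the SK-UT-1B DMSO libraries. Such genes passed the filter through SK-LMS-1 alone, which fixed their direction, so this count is not read as a result. The smooth muscle list had more genes higher than lower in SK-LMS-1, where EGFR, MET, and AXL were higher. The part of the smooth muscle and epithelial lists in the receptor differences was not tested.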

How the data were processed

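Stranded libraries from ribosome-depleted RNA of 12 samples were sequenced as single-end reads. The submitters' processing notes name Trim Galore 0.3.7, STAR 2.7.9a, hg38, and DESeq2 1.42.0. The authors deposited raw counts of reads per gene made with STAR, without normalization. The annotation and the strand setting of the counts are not given in the sources used here. Total counts lay between 25250057 and 40709885 per library, and intervals cover the spread between libraries, while floors cover counting error only.

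The 6 groups of 2 libraries are each line and treatment, with the SK-LMS-1 DMSO libraries split by set number. The members and gene lists were chosen with earlier results of these data known. Genes were tested with edgeR 4.0.16 under R 4.3.3 (TMM, filterByExpr, robust quasi-likelihood fit over all groups, Benjamini-Hochberg adjustment over 21114 genes), tested on simulated data. The alternatives were DESeq2 1.42.0, the tool of the study, DESeq2's size factors within edgeR, dropping the filter, a filter at a mean of 50 counts, fits on the compared libraries alone, both SK-LMS-1 DMSO sets as one control, a replicate block, and each library left out. Those for genes of the lists other than members were chosen after seeing the data. CPM used TMM library sizes, and RPKM the union of GENCODE v44 exons, in which 60463 of 60649 identifiers were found with or without the version. Windows before start sites came from RefSeq (GRCh38.p14), with 9 of 10 members matched. The floor was 3 counts per library.

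All 10 members were examined in every comparison. From each other list up to 2 called genes with the highest and 2 with the lowest log2FC are named, if the higher group averaged 100 counts or more. One such gene is not reported here.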

Additional observations from a re-analysis of the deposited data

Results flagged for a closer look

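Among the 4 SK-LMS-1 DMSO libraries, 8 members were examined for a library far from the others, a rule that chance meets in about 1 of 20 groups. PDGFRA had 131 CPM in replicate 3 of DMSO set 2, against 106 to 110 CPM in the others, a gap of 0.876 of the whole range. FGFR1 had 303 CPM in replicate 1 of DMSO set 4, against 253 to 262 CPM in the others, a gap of 0.83 of the range, at the limit of the rule.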

How the results depend on the processing

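Of 47 differences of members examined, 36 kept their direction and their side of the thresholds under every alternative, as did 14 of 16 differences between the lines, and 48 of 56 differences of genes from the lists. After either treatment, 9 members differed between the lines in each alternative. The count of members past the thresholds ranged from 0 to 1 with a library left out for SK-UT-1B after the combination and for the difference of the combination responses, each time 1 without SK-UT-1B DMSO replicate 2. No value that changed sign had passed the thresholds, and the cause was not tested. In SK-UT-1B after the combination, PDGFRA had -0.0063 with DESeq2, -0.0066 with its size factors, -0.014 with no filter, and -0.011 with a mean of at least 50 counts, and MET had 0.028 with DESeq2 and 0.052 with only its libraries. In SK-LMS-1 after the combination, FGFR1 had 0.030 and EGFR -0.048 with all 4 DMSO libraries, EGFR had -0.0205 with DESeq2, -0.0198 with size factors, -0.0197 with no filter, -0.0326 with a mean of at least 50 counts, and -0.0231 with only its libraries, and ERBB2 had -0.0175, -0.0173, -0.0173, -0.0308, and -0.0208 in that order. With 1 library left out, values ranged in SK-UT-1B after the combination from -0.33 to 0.24 for PDGFRA, -0.13 to 0.18 for ERBB2, -0.71 to 1.54 for MET, -0.11 to 0.21 for AXL, and -0.95 to 0.18 for KIT, in SK-LMS-1 after the combination from -0.55 to 0.19 for PDGFRB, -0.12 to 0.088 for FGFR1, -0.019 to 0.074 for EGFR, and -0.12 to 0.20 for ERBB2, and between the lines for PDGFRB from -0.22 to 0.16 after DMSO and -0.10 to 0.99 after the combination. The library left alone in a group was assumed to vary like the others. Replicate numbers did not pair the libraries of the groups that share numbers 1 and 2 (correlations of deviations -0.0118 to 0.00986), and other groups were not checked. With a replicate block the SK-UT-1B log2FC was -0.10 for PDGFRA, -0.14 for ERBB2, 0.072 for MET, and -0.018 for AXL. With 2 libraries per group, the intervals of FGFR2 and FGFR3 in SK-UT-1B reached several-fold changes after the combination, and those of PDGFRB, MET, and KIT reached past 2-fold.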

Other observations

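The ligands of 3 of the members, chosen after their values were seen, were read beside their receptors. HGF, the ligand of MET, had a mean of 113 CPM in SK-UT-1B after DMSO and 236 and 235 CPM in the DMSO sets of SK-LMS-1, a log2FC of 1.06 (edgeR adjusted p = 3.38e-06), so both ligand and receptor were higher in SK-LMS-1, although the log2FC was 0.97 to 1.08 when 1 library was left out and under 1 in 3 of those 6 cases. GAS6, the ligand of AXL, had 27.5 CPM in SK-UT-1B and 388 and 498 CPM in SK-LMS-1, a log2FC of 4.0 (edgeR adjusted p = 4.25e-13). KITLG, the ligand of KIT, had 153 CPM in SK-UT-1B and 103 and 82.3 CPM in SK-LMS-1, a log2FC of -0.73 (edgeR adjusted p = 0.00219), under the fold threshold and opposite to KIT. After the combination KITLG did pass as lower in SK-LMS-1, with a log2FC of -1.14 (edgeR adjusted p = 0.000247).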
